A study of Canis lupus familiaris with 12 samples.

Results

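AVPR2, ATP1B1, CUBN and SLC5A2 are 4 genes of kidney tubule transport and signalling, 3 of them tied to particular segments and ATP1B1 found along the whole tubule, and they were followed here in MDCK cells, a line of tubule epithelium from the dog (Madin-Darby canine kidney). Every gene probe of the array whose identifier was a RefSeq transcript of 1 of these 4 dog genes was taken. This gave 4 of the 944 genes that could be named, and 7 of 43603 probes: 2 for AVPR2 (NM_001003177), 1 for ATP1B1 (NM_001003283), 2 for CUBN (NM_001003148) and 2 for SLC5A2 (NM_001007142). The cells, bought from a culture collection, had been grown to confluence and moved to serum-free medium at pH 7.4 a day before the experiment. They then spent 24 h either in control medium at pH 7.4 or in medium brought to pH 7.0 by lowering its bicarbonate. No gene was altered in either group. Each of 3 biological replicates, with RNA extracted on different dates, gave 1 RNA per pH. With 2 arrays per RNA there were 12 one-colour (Cy3) Agilent arrays, 6 at each pH.

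The nephron is a tube whose successive segments carry different transporters. Cells of the proximal tubule take filtered glucose and protein back from the lumen, and cells of the collecting duct adjust water under the hormone vasopressin. AVPR2 encodes the vasopressin V2 receptor, which couples to the stimulatory G protein and cyclic AMP in principal cells of the collecting duct and in the thick ascending limb. ATP1B1 encodes the beta subunit that carries the sodium pump, the Na,K-ATPase, to the basolateral membrane of tubule cells. CUBN encodes cubilin, a very large receptor that binds filtered proteins and vitamin B12 carriers at the brush border and is anchored there by amnionless. SLC5A2 encodes SGLT2, the cotransporter that reclaims most filtered glucose in the early proximal tubule. MDCK cells are widely used as a model of the distal nephron and collecting duct. Changes of pH in the medium are of interest in such cells because tubule cells meet acid loads in the body.

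The 4 arrays of a biological replicate shared 1 slide and 1 scan date, so biological replicate, slide and scan cannot be told apart. Signals below are log2 of the background-subtracted spot signal minus log2 of the array's 75th percentile, so that 0 is the 75th percentile of an array. That percentile lay between 410 and 944 signal units. A probe is called detected on an array here where the scanner software marked it well above background, which held for 49.4% to 70.4% of probes per array. Fewest were detected on the slide of biological replicate 2 (49.4% to 54.1%), and its negative control spots were the brightest, with medians of 86 to 106 units against 28.5 to 33 on the other arrays. With RNA from whole cultures, fewer cells that express a gene and less of its RNA per cell cannot be told apart.

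None of the 4 genes passed the test for a difference between pH 7.0 and pH 7.4. Detection on at least 6 of the 12 arrays was required, and 6 of the 7 probes met it and entered the fit of all 27136 such probes, in which limma compared the 2 pH values within biological replicates. At an adjusted p (Benjamini-Hochberg) under 0.05, limma called 0 of the 6, and 0% of all tested probes were called. At an unadjusted p under 0.05 it again called 0 of the 6, against 12.2% of all tested probes (6.48% higher and 5.77% lower at pH 7.0). The estimates were above 0 for 3 probes, as for 51.3% of all tested, and below 0 for 3, with a median of 0.026 against 0.012 over all tested probes. In 1 of the 6, an AVPR2 probe not detected in biological replicate 2, the sign was the same in all 3 biological replicates, against 33.7% of all tested probes. In 0 of the 6 did the 3 RNAs at pH 7.0 lie wholly outside those at pH 7.4, against 8.09% of all tested probes.

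**Figure D1:**
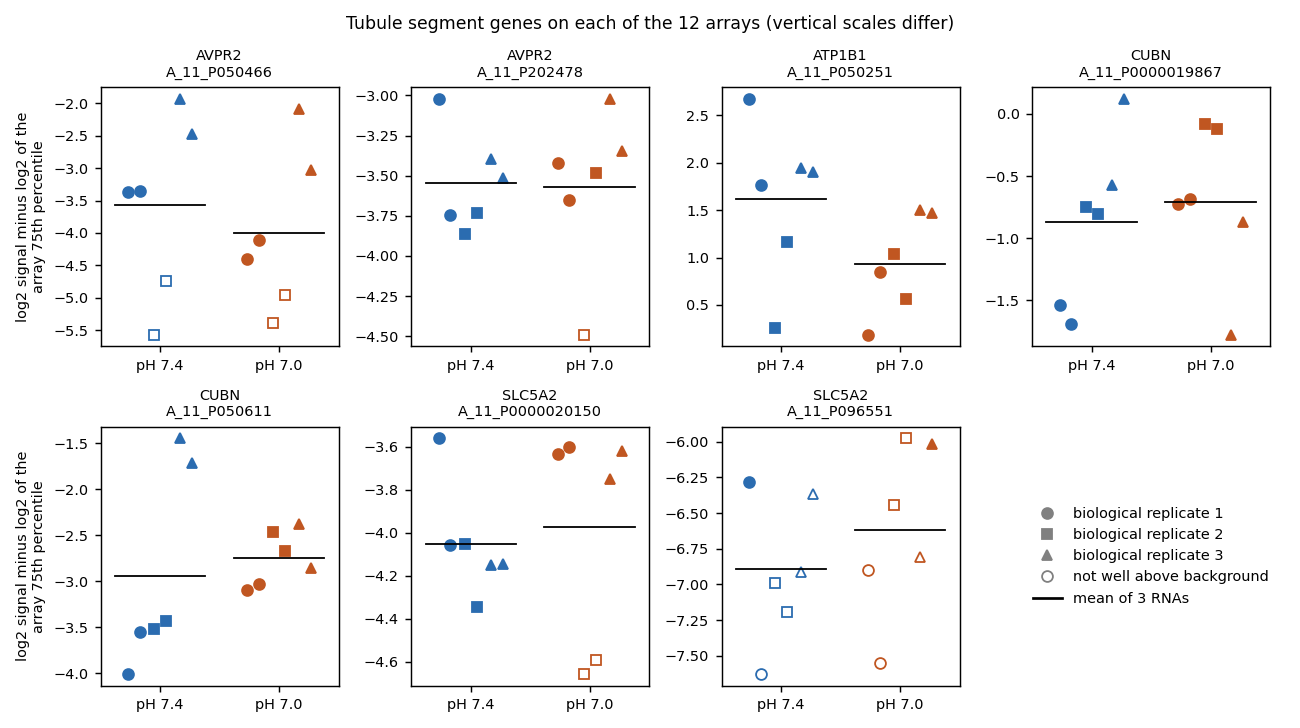
Level of each of the 7 probes on each of the 12 arrays, as log2 signal minus log2 of the array's 75th percentile, at pH 7.4 (blue) and pH 7.0 (orange). Symbols mark the biological replicate, open symbols mark arrays on which the probe was not detected, lines are means of 3 RNAs, and the vertical scale differs between panels, so the panels are not to be compared in height. Arrays of the 2 pH values overlap in every panel, and the open symbols of AVPR2 and of SLC5A2 probe A_11_P0000020150 all belong to biological replicate 2.

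AVPR2, the vasopressin receptor gene, was measured at a low signal at both pH values, and its 2 probes gave a lower estimate at pH 7.0 by one and almost none by the other. Probe A_11_P202478 was detected on every array at pH 7.4 and on all but 1 at pH 7.0. Its level at pH 7.4 was -3.39, -3.80 and -3.46 in biological replicates 1 to 3, a mean of -3.55 ± 0.22 (SD, n = 3 RNAs). At pH 7.0 it was -3.54, -3.99 and -3.19, a mean of -3.57 ± 0.40 (SD, n = 3 RNAs). The 2 groups overlapped, and the change, pH 7.0 minus pH 7.4, was -0.024 ± 0.23 (SE, limma; 95% interval -0.53 to 0.48; adjusted p = 0.978). It was slightly lower at pH 7.0 in biological replicates 1 and 2 (-0.15 and -0.19) and higher in 3 (0.27). The single array that did not detect it was pH 7.0 array 3, of biological replicate 2, at 22.4 signal units.

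The other AVPR2 probe, A_11_P050466, was detected on 4 arrays at each pH. Its level was -3.36, -5.15 and -2.20 in biological replicates 1 to 3 at pH 7.4, a mean of -3.57 ± 1.49 (SD, n = 3 RNAs). It was -4.26, -5.17 and -2.56 at pH 7.0, a mean of -3.997 ± 1.33 (SD, n = 3 RNAs). The change was -0.42 ± 0.25 (SE, limma; 95% interval -0.97 to 0.13; adjusted p = 0.530). The differences were -0.89 in biological replicate 1 and -0.36 in 3. In biological replicate 2, where neither pH was detected, the value of -0.020 has no readable sign. The 2 arrays at pH 7.0 lay below the 2 at pH 7.4 only in biological replicate 1.

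For this probe the means over the 4 arrays of a biological replicate were -3.81 in 1 and -2.38 in 3, where every array detected it. Those of A_11_P202478, on the same transcript, were -3.46 and -3.32. In biological replicate 2, A_11_P050466 was detected on 0 of 4 arrays. Its background-subtracted signals there were 8.71 to 28.5 units with stated errors of 22.9% to 56.8% of the signal, although its unsubtracted median signals of 106 to 137 units were no dimmer than the 68 to 131 of biological replicate 1. The part of the brighter negative controls of biological replicate 2 in these values was not tested. The difference between the changes of the 2 AVPR2 probes was 0.40 ± 0.25 (SE; 95% interval -0.17 to 0.97), an interval that includes 0 and also differences larger than either change. The mean of the 2 probes gave -0.22 ± 0.23.

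ATP1B1, the beta subunit gene of the sodium pump, had the largest estimate of the 6 tested probes, lower at pH 7.0, but the 3 biological replicates disagreed. Its probe A_11_P050251 was detected on all 12 arrays, at 494 to 4685 signal units. At pH 7.4 its level was 2.22, 0.71 and 1.92 in biological replicates 1 to 3, a mean of 1.62 ± 0.80 (SD, n = 3 RNAs). At pH 7.0 it was 0.52, 0.80 and 1.48, a mean of 0.93 ± 0.50 (SD, n = 3 RNAs). The RNAs of biological replicates 1 and 3 were the high ones at pH 7.4, that of 2 was the low one, and the groups overlapped. The change was -0.69 ± 0.32 (SE, limma; 95% interval -1.41 to 0.041; unadjusted p = 0.0618, adjusted p = 0.435), a signal 1.61-fold lower at pH 7.0.

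By biological replicate the ATP1B1 change was -1.70, 0.085 and -0.44. Both arrays at pH 7.0 lay below both at pH 7.4 in biological replicates 1 and 3, and the arrays overlapped in 2. Duplicate arrays of 1 RNA differed by 0.79 log2 units on average in biological replicate 1, by 0.69 in 2 and by 0.043 in 3. The pooled SD between duplicate arrays was 0.44 for this probe, against a median of 0.30 over all tested probes, and 20.4% of tested probes had a larger one. Without biological replicate 1 the estimate was -0.18 (adjusted p = 0.854), and without biological replicate 2 it was -1.07 (adjusted p = 0.0959). ATP1B1 was the only gene of 15 listed Na,K-ATPase subunit and FXYD regulator genes that could be named on the array, so the catalytic alpha subunits are not described here.

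CUBN, the cubilin gene, was detected on every array by both of its probes, and both probes gave the same pattern, higher at pH 7.0 in 2 biological replicates and lower in the third. Probe A_11_P0000019867 stood at -1.61, -0.78 and -0.23 in biological replicates 1 to 3 at pH 7.4, a mean of -0.87 ± 0.70 (SD, n = 3 RNAs). At pH 7.0 it stood at -0.70, -0.099 and -1.32, a mean of -0.71 ± 0.61 (SD, n = 3 RNAs). Its change was 0.16 ± 0.36 (SE, limma; 95% interval -0.64 to 0.97; adjusted p = 0.902). The groups overlapped, and biological replicate 3 was the highest at pH 7.4 and the lowest at pH 7.0.

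The dimmer CUBN probe, A_11_P050611, stood at -3.78, -3.48 and -1.58 at pH 7.4, a mean of -2.95 ± 1.19 (SD, n = 3 RNAs). At pH 7.0 it stood at -3.07, -2.57 and -2.62, a mean of -2.75 ± 0.27 (SD, n = 3 RNAs). Its change was 0.20 ± 0.36 (SE, limma; 95% interval -0.60 to 0.99; adjusted p = 0.877). Again the groups overlapped, and again biological replicate 3 was the highest at pH 7.4.

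Within biological replicates the pH values of CUBN were further apart than the duplicate arrays. The changes were 0.91, 0.68 and -1.09 by A_11_P0000019867 and 0.71, 0.91 and -1.04 by A_11_P050611. In each biological replicate, and by each probe, the 2 arrays at pH 7.0 lay wholly above or wholly below the 2 at pH 7.4. Of all tested probes, 15.0% were separated in this way in all 3 biological replicates, and 6.95% were so with both directions among the 3. Pooled SDs between duplicate arrays were 0.33 and 0.22, while the SDs of the 3 changes were 1.10 and 1.07. The difference between the changes of the 2 probes was -0.031 ± 0.22 (SE; 95% interval -0.53 to 0.47). The 2 arrays of an RNA share its extract, so this shows how well an RNA was measured and does not stand in for further cultures. Duplicates of biological replicate 3 were the furthest apart by the brighter probe, at 0.80 log2 units on average.

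**Figure D2:**
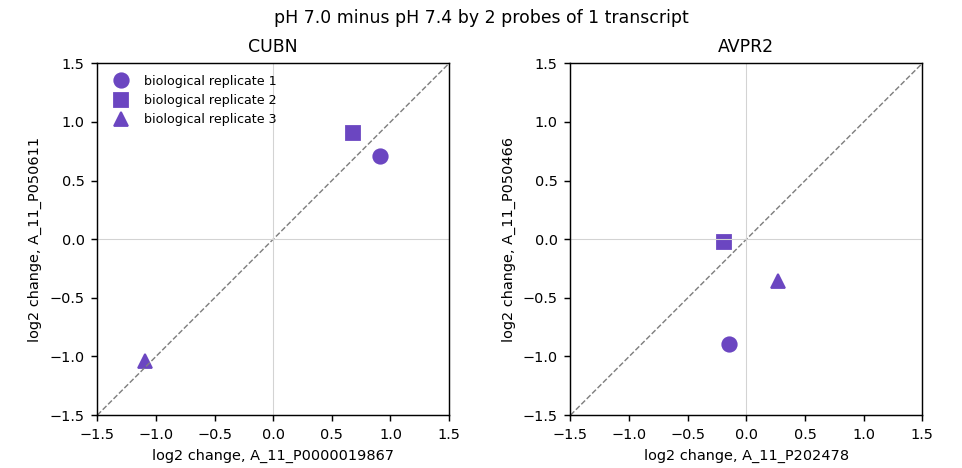
Log2 change, pH 7.0 minus pH 7.4, in each of the 3 biological replicates by one probe (horizontal) and by the other probe of the same transcript (vertical), for CUBN and AVPR2. The dashed line marks equal changes: the CUBN points lie near it, with biological replicate 3 at -1.09 and -1.04, whereas AVPR2 biological replicates 1 and 3 lie below it.

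SLC5A2, the gene of the glucose cotransporter SGLT2, was read differently by its 2 probes. A_11_P0000020150 was detected on all arrays but 2. Its level was -3.81, -4.20 and -4.15 in biological replicates 1 to 3 at pH 7.4, a mean of -4.05 ± 0.21 (SD, n = 3 RNAs). It was -3.62, -4.63 and -3.69 at pH 7.0, a mean of -3.98 ± 0.56 (SD, n = 3 RNAs). The change was 0.077 ± 0.25 (SE, limma; 95% interval -0.48 to 0.63; adjusted p = 0.935), with 0.19, -0.43 and 0.46 in the 3 biological replicates. The groups overlapped. The value of -0.43 rests on a pH 7.0 RNA that neither of its arrays detected, so it is not a measured level on that side.

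Both arrays that did not detect SLC5A2 by that probe were of pH 7.0 in biological replicate 2, at 17.0 and 19.9 signal units, against 24.9 and 37.5 at pH 7.4 on the same slide. Their stated errors were 24.1% and 37.0% of the signal. The negative control spots of that slide were the brightest, as given above, and their part in this was not tested. This probe had the closest duplicates of the 6 tested probes, with a pooled SD of 0.17 that 86.1% of tested probes exceeded.

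The other SLC5A2 probe, A_11_P096551, was detected on 1 array at each pH, of biological replicate 3 at pH 7.0 and of 1 at pH 7.4, and was not tested. Its signals ran from 3.25 to 9.44 units, with stated errors from 19.5% to 99.8% of the signal. Its levels were -6.96, -7.09 and -6.64 at pH 7.4 and -7.22, -6.21 and -6.41 at pH 7.0 in biological replicates 1 to 3, values at which no change is read. Both probes carry the same transcript identifier, and why one was detected on 10 of 12 arrays and the other on 2 of 12 was not tested. Detection of SLC5A2 rests on A_11_P0000020150 alone.

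**Figure D3:**
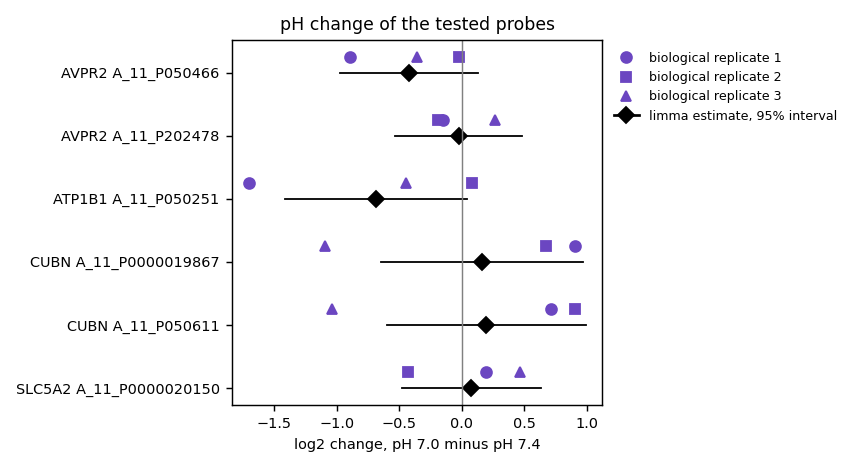
Log2 change, pH 7.0 minus pH 7.4, of the 6 tested probes: diamonds are limma estimates with 95% intervals, and purple symbols are the 3 biological replicates. Every interval includes 0, that of ATP1B1 reaching from -1.41 to 0.041, and the CUBN symbols split into 2 above 0 and 1 below by both probes.

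Background correction of another kind changed the sign of 2 of these estimates. With normexp correction the dimmer CUBN probe stood at -0.46 and SLC5A2 probe A_11_P0000020150 at -0.48. That correction also moved the median of all tested probes to -0.19, and relative to it the 2 probes stood at -0.27 and -0.29. The brighter CUBN probe stayed above 0, at 0.053, or 0.24 relative to that median. AVPR2 and ATP1B1 kept their sign under it, with ATP1B1 at -0.63. AVPR2 stood at -0.84 by A_11_P050466 and -0.51 by A_11_P202478, against -0.42 and -0.024 as reported. That A_11_P202478 showed almost no change thus depends on the background correction. Relative to the normexp median AVPR2 stood at -0.65 and -0.32 and ATP1B1 at -0.43. Relative to the median of the reported setting AVPR2 stood at -0.43 and -0.036 and ATP1B1 at -0.70.

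The neighbours of these genes in their pathways were looked up in lists by segment, chosen with earlier results of these data known. Only 1484 probes, 3.40% of the array, carried a RefSeq name, so 41 of 186 listed genes could be named and 24 were tested. Of those 24, each by its brightest tested probe, limma called 0 at an adjusted p under 0.05. At an unadjusted p under 0.05 it called 1, against 12.2% of all tested probes. There were 13 higher and 11 lower, against 60.7% higher over all 598 tested named genes, whose median was 0.077. The brightest probes of GNAS, SLC2A1 and CTNNB1 were saturated on some or all arrays. Taking for each gene the brightest probe that no array saturated, a choice made after seeing the data, 2 of 24 passed at an unadjusted p under 0.05, 0 passed at an adjusted one, 12 were higher and 12 lower, and the median was 0.025.

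CUBN's partner AMN, which encodes amnionless, was bright on all 12 arrays and had an estimate below 0. Both CUBN estimates were above 0, but they fell below 0 without biological replicate 1 and also without 2. The AMN probe stood at -1.01 ± 0.46 (SE, limma; adjusted p = 0.411), with -2.75, 0.091 and -0.38 in biological replicates 1 to 3. In biological replicate 1 the signals were 6589 and 9234 units at pH 7.0 against 53890 and 60520 at pH 7.4. In biological replicate 2 they were 5580 to 9358 at both pH values, and in 3 they were 40370 to 62880. The RNAs thus fell into a low set of 3 and a high set of 3, and the pH groups overlapped. No AMN spot was flagged as saturated. On the arrays of the high set, however, its level was 6.00 to 6.94. The SLC2A1 probe saturated on all 12 arrays had means of 6.65 at pH 7.0 and 6.55 at pH 7.4. Whether high AMN signals were compressed was not tested. Without biological replicate 2 AMN was called at -1.56 ± 0.36 (adjusted p = 0.00243), in a fit of 2 pairs that gave all 6 tested member probes and AMN the same SE and called 647 probes. AMN and ATP1B1 both had their most negative value in biological replicate 1, where both CUBN probes were higher at pH 7.0. In biological replicate 3 AMN, ATP1B1 and both CUBN probes were lower at pH 7.0. CBLIF, the gene of intrinsic factor, a ligand of cubilin, was detected on 0 of 12 arrays.

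Of the vasopressin and principal cell list, 3 of 25 genes could be named and all 3 were tested. Beside AVPR2 these were GNAS, the stimulatory G protein to which the receptor couples (0.059 ± 0.23 by its brightest unsaturated probe), and PRKACA, a catalytic subunit of the cyclic AMP-dependent kinase (0.39 ± 0.25). PRKACA was dim, detected on 4 arrays at each pH, with changes of -0.12, 0.69 and 0.60 in biological replicates 1 to 3. The brightest GNAS probe was saturated on 4 of the 12 arrays, and its 4 other probes lay between -0.085 and 0.14. The median of the 3 genes was 0.059 over unsaturated probes.

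Among glucose transporters, 3 of 5 named genes were tested, and by unsaturated probes 2 had an estimate above 0 and 1 below, with a median of 0.077, which is the value of SLC5A2. SLC2A9, a urate and hexose carrier, stood at 0.56 ± 0.29 (adjusted p = 0.468), with -0.011, 1.37 and 0.33 in biological replicates 1 to 3. The brightest probe of SLC2A1, the basal glucose carrier GLUT1, was saturated on all 12 arrays and gives no fold, and its unsaturated probe stood at -0.22 ± 0.22. SLC5A1, which encodes SGLT1 of the late proximal tubule and gut, was detected on 4 of 12 arrays and SLC2A4, the insulin-responsive carrier, on at most 5, so neither was tested. Among them SLC5A2 took the opposite sign with the normexp background correction described above.

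Other genes of the proximal tubule were mostly dim beside CUBN and AMN. Of 31 listed, 5 could be named, and 0 of the 5 reached 6 arrays, whereas 63.3% of all named genes had a probe that did. AQP1, the water channel, was detected on 5 of 12 arrays. ANPEP, aminopeptidase N, and SLC3A1, a subunit of the cystine carrier, reached 4 by their best probe, and SLC7A9, its partner subunit, 0. The 5 arrays that detected AQP1 were 4 of pH 7.0 and 1 of pH 7.4, but AQP1 was not tested and no change is read from this split.

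Distal segments were mixed as well. Of the thick ascending limb list CASR, the calcium-sensing receptor (-0.45 ± 0.23), and EGF, epidermal growth factor (-0.48 ± 0.23), were detected on all 12 arrays and did not pass. UMOD, uromodulin, the defining product of that segment, was so on 0 of 12. Of the intercalated cell list CA2, carbonic anhydrase 2 (-0.37 ± 0.23), was detected on 12 of 12 arrays and RHBG, an ammonia channel (-0.33 ± 0.26), on 8. The anion exchanger SLC4A1 and the ammonia channel RHCG were detected on 0, and KIT on at most 1. None of the 10 listed genes of the distal convoluted tubule could be named. Over all lists, those of other cell types included, 24 of 41 named genes reached 6 arrays, a share near the 63.3% of all named genes.

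**Figure D4:**
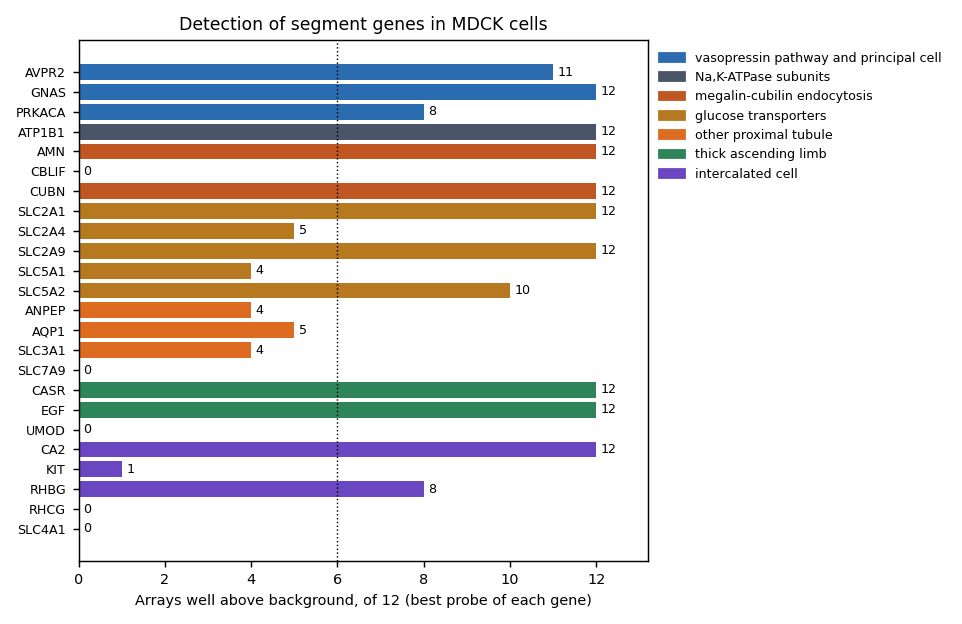
Number of the 12 arrays on which the best probe of the segment genes shown was detected, coloured by list, with the dotted line at the 6 arrays needed for the test. CUBN, AMN and ATP1B1 reach 12 and AVPR2 11, while UMOD, RHCG, SLC4A1 and SLC7A9 are at 0.

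Of 19 genes listed for kidney epithelium 5 could be named, and their pH changes do not test whether the cells are epithelial. All 5 named genes of the kidney epithelium list were tested: CLDN2 (1.15 ± 0.29), CLDN3 (0.087 ± 0.24), OCLN (0.26 ± 0.23), TJP1 (-0.096 ± 0.24) and CTNNB1. These encode claudins, occludin, the ZO-1 scaffold and beta-catenin of cell junctions. The brightest CTNNB1 probe was saturated on every array at pH 7.0 and 3 at pH 7.4 and gives no fold, and its 3 other probes stood at 0.67, 0.92 and 1.31. Unadjusted limma p-values of those 3 were 0.0125, 0.00481 and 0.000841, and adjusted ones 0.264, 0.209 and 0.127. For CLDN2 the unadjusted limma p was 0.00269 and the adjusted one 0.174. This CLDN2 probe, A_11_P050646, was dim: only 5 pH 7.0 arrays detected it, and only 3 pH 7.4 arrays did. The size of its change thus rests partly on undetected signals. By biological replicate the change was 0.54, 1.95 and 0.97. A second CLDN2 probe, detected on 7 arrays in all, stood at 0.94 ± 0.23 (limma, adjusted p = 0.165). The median change of the 5 genes was 0.26. Without biological replicate 1 CLDN2 was called by limma, through the dim A_11_P050646, at 1.46 ± 0.31 (adjusted p = 0.0276). That fit of 2 pairs called 277 probes. With the 12 arrays fitted with the RNA as a random block, that probe was called at 1.15 ± 0.29 (adjusted p = 0.0355). This fit called 1488 probes, against 0 as reported. It used a correlation of 0.164 between arrays of an RNA, so duplicate arrays of 1 extract weigh almost as separate RNAs.

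Named genes with the profile most like each probe over the 6 RNAs were found by the root mean square difference of the centred log2 levels, among 597 genes. For ATP1B1 they were HTR1B (0.19), KLK1, tissue kallikrein (0.26), and SNAI2 (0.27), against a median of 0.74 over all genes. Nearest to CUBN by its brighter probe were EDN1, endothelin 1 (0.29), TUBD1 (0.32) and CD86 (0.32), and by its dimmer probe CASP12 (0.22), FHIT (0.36) and CASP4 (0.38). The 2 probes thus had no neighbour in common, and their medians over all genes were 0.69 and 0.76. RPPH1 (0.29) and GNB3 (0.40) lay near AVPR2 by A_11_P050466, against a median of 1.17. The profile of that probe includes biological replicate 2, where it was not detected. By A_11_P202478 the nearest were IDS (0.093), QKI (0.11) and POMGNT2 (0.13), against a median of 0.46. SLC5A2 by A_11_P0000020150 had KCNH2 (0.088), SULF2 (0.11) and CLN8 (0.17), against a median of 0.54. The RNAs of a biological replicate share a slide, which these distances include, and a probe that varies little lies near others that vary little.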

How the data were processed

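RNA of MDCK cells kept 24 h at pH 7.0 or pH 7.4 was measured on 12 one-colour Agilent arrays. Feature Extraction 10.7.3.1 is named in the submitters' processing notes. The deposited scanner files give, for each spot, an intensity in Cy3, per the file headers: a processed, background-subtracted signal with its error, a median signal, a local background and 0 or 1 flags. The deposited value table holds log2 values. Its scale and centring are not stated and were worked out by comparison: its differences between arrays followed those of the log2 processed signal with slopes of 1.00, after centring of arrays and of probes. The columns had medians of -0.113, -0.150, 0.226, 0.213, -0.226 and 0.0170 on arrays 1 to 6 of pH 7.0, and of 0.0197, -0.212, 0.213, 0.0793, -0.0855 and 0.0656 on those of pH 7.4.

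Control spots were left out, 128 outlier spots were set to missing, repeat spots were averaged in log2, and the 75th percentile over probes was subtracted. Array numbers in the titles gave the biological replicate (arrays 1 and 2, 3 and 4, 5 and 6). The 2 arrays of an RNA were averaged. Probes well above background on at least 6 of 12 arrays were fitted with limma 3.58.1 in R 4.3.3 with the biological replicate as a block (two-sided moderated test, Benjamini-Hochberg over 27136 probes, threshold 0.05, 9.67 degrees of freedom). Deviations from group means correlated at 0.394, 0.637 and 0.807 within biological replicates 1 to 3, and the series' design text pairs them. P-values refer to separate extractions of 1 cell line, and the 3 pairs limit the precision.

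Names came from RefSeq accessions without version, matched to the dog assembly UU_Cfam_GSD_1.0, whose coordinates and sequences are not used here. The named genes were the 4 members by every probe, all tested genes in each list (no list had more than 5 tested) and the 3 nearest profiles. A gene near AVPR2 by that rule and a listed proximal tubule gene are not reported here. Members and lists were chosen with earlier results of these data known. Genes too dim to test were described after their values were seen. Alternatives covered the block, duplicate arrays, normexp (offset 50), scaling, the value table, filters, outlier spots, the prior, and leaving out each biological replicate and array. Lists by unsaturated probes, the CUBN probe difference, the mean of the CUBN probes, the percentile over spots and the counts of separated arrays were added after seeing the data. The fit was tested on simulated data. Figures used python 3.11.15 and matplotlib 3.10.9.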

Additional observations from a re-analysis of the deposited data

How the results depend on the processing

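None of the 6 tested probes of the 4 genes passed an adjusted p of 0.05 under any of the 27 alternative settings that could be fitted for it, and the lowest adjusted p was 0.0959, for ATP1B1 without biological replicate 2, where all 6 had the same pooled SE of 0.36. The estimates of ATP1B1 and of AVPR2 probe A_11_P050466 kept their sign in all of theirs, from -1.07 to -0.18 and from -0.84 to -0.19. Without the replicate block the estimates were the same, ATP1B1 at -0.69 with an adjusted p of 0.9999, and the block changed no call. With normexp, CUBN probe A_11_P050611 took the opposite sign (-0.46), as did SLC5A2 (-0.48), and the CUBN probe difference moved to 0.51. AVPR2 probe A_11_P202478 moved to -0.51 (limma, adjusted p = 0.676) with normexp. Leaving out 1 biological replicate or array at a time, AVPR2 probe A_11_P202478 ran from -0.19 to 0.14, CUBN probe A_11_P0000019867 from -0.21 to 0.79, CUBN probe A_11_P050611 from -0.16 to 0.81, and SLC5A2 from -0.12 to 0.33. The CUBN probe difference ran from -0.26 to 0.20 and the AVPR2 one from 0.23 to 0.68. The count of listed genes called ran from 0 to 1 in these: CLDN2 without biological replicate 1 and AMN without biological replicate 2. It was 1 (CLDN2) with the 12 arrays fitted through duplicateCorrelation on the RNA, which called 1488 probes in all. Over all probes the count called at an adjusted p under 0.05 was 0 as reported, where the smallest adjusted p was 0.0502, and it was 20 with the percentile taken over spots, 24 with median scaling, 134 over probes detected on all 12 arrays, 192 with a trend and robust prior, 9 with normexp, 277 without biological replicate 1 and 647 without biological replicate 2. The cause of these shifts was not tested. The AVPR2 probes and the SLC5A2 probe have no value over probes detected on all 12 arrays, since they are not among them. Signal over background limits AVPR2 and SLC5A2 in biological replicate 2.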

Other observations

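Genes of other cell types were few and mixed among the named ones. Of mesenchymal genes the collagen chains COL1A1 (0.43 ± 0.26) and COL1A2 (-0.21 ± 0.23) and the receptor PDGFRB (-0.014 ± 0.25) were tested and did not pass. These values are of the brightest tested probe of each gene. Another tested COL1A1 probe stood at 0.056 and another of PDGFRB at -0.18, and other tested COL1A2 probes stood between -0.091 and 0.27. The remaining probes of COL1A1 were detected on 0 and 2 arrays and those of COL1A2 on 0 and 5. DCN, decorin, was well above background on at most 1 of 12 arrays. VWF, von Willebrand factor, an endothelial product, was detected on 12 of 12 arrays (0.17 ± 0.31), whereas KDR and SELE, also endothelial, reached 3 and 2. CD8A of T cells was detected on 7 arrays by one probe (-0.0093 ± 0.23) and on 0 by the other, CD4 on 5, and MS4A1 of B cells on 0. PODXL, podocalyxin, which podocytes and other epithelia carry, was detected on 12 arrays by its brightest probe (0.18 ± 0.23). Another probe detected on 12 arrays stood at -0.31 ± 0.30, with a change in biological replicates 2 and 3 only. One detected on 9 arrays stood at 0.033 ± 0.23.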
